A study of Mus musculus with 5 samples.

Results

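The genes described here are the fibroblast growth factor (FGF) genes of the mouse, their receptors and the genes that relay or damp their signal. They were taken by the gene name printed for each probe of the array: every Fgf and Fgfr gene with a number except Fgf8 and Fgf5, together with Spry1, Spry2, Spry4, Spred1, Spred2, Dusp6, Etv4, Etv5, Frs2 and Frs3. This gave 43 probes of 28845, for 33 genes of the 24799 genes or transcripts measured. No probe carried the name Frs2. The 33 genes were 13 secreted ligands, 3 endocrine ligands, 4 intracellular FGF homologous factors, 4 receptors, the adaptor Frs3, 6 inhibitors and 2 target transcription factors. Of these genes 26 had 1 probe and 7 had several, and the brightest probe stands for a gene below unless another is named.

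RNA came from a mouse embryoid body model, in which aggregates of stem cells differentiate and heart development can be followed in culture. There were 4 isolated populations. Rex1-positive cells (the product of Zfp42) were the undifferentiated stem cells of day 0. At day 4.5 there were Bra-positive cells, marked by the product of T (Brachyury) and labelled early mesoderm, and Flk1-positive cells, marked by the product of Kdr and labelled cardiac mesoderm. Nkx2.5-positive cells (the product of Nkx2-5), labelled cardiac progenitors, were of day 7.5. On two-colour arrays of 30000 spots, Rex1 RNA in Cy3 was set against Bra, Flk1 and Nkx2.5 RNA in Cy5, 1 array each, and Nkx2.5 RNA in Cy5 against Bra and against Flk1 RNA in Cy3, again 1 array each, so that there were 5 arrays. No dyes were exchanged, no replicate was hybridised, and whether a population's RNA was 1 extract on all of its arrays is not given in the sources used here, nor are the stem cell line and the way the cells were isolated. All values are of whole populations, so that fewer cells of a type and less RNA per cell cannot be told apart.

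FGFs are secreted proteins that bind, together with heparan sulfate, to receptor tyrosine kinases of the Fgfr family. The receptors act through Frs adaptors on the Ras and MAP kinase cascade, which induces the ETS transcription factors Etv4 and Etv5 and also its own inhibitors: the Sprouty and Spred proteins and the ERK phosphatase Dusp6. In stem cells this pathway moves cells out of naive pluripotency, in the gastrula it is needed for mesoderm to form and migrate, and in the heart it supports the growth of progenitors and muscle.

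Sequence upstream of the transcription start is shown for 3 genes: Fgf12, the single gene of the group that passed the size rule given below, with the outermost annotated starts of its 4; Fgfr4, the other gene of the group with a match to the ETS core; and Dusp6, a feedback gene of the pathway. The sequences are the 250 bases before the start, from RefSeq promoters of build GRCm38.p6, 5′ to 3′ on the gene's strand, and capitals mark a match to CCGGAA or its reverse complement TTCCGG, the core of many ETS factor sites.
Fgf12, chr16:28753244-28753493, minus strand, GRCm38.p6: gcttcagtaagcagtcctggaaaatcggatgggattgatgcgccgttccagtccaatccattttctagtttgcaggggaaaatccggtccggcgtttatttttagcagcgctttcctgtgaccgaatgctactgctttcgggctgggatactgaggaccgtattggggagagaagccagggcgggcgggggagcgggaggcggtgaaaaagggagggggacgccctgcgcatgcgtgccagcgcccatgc
Fgf12, chr16:28446076-28446325, minus strand, GRCm38.p6: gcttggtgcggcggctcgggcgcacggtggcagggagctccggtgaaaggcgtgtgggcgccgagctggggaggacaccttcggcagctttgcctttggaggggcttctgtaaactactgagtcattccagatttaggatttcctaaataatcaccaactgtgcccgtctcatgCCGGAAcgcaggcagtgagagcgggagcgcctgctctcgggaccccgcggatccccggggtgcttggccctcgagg
Fgfr4, chr13:55152568-55152817, plus strand, GRCm38.p6: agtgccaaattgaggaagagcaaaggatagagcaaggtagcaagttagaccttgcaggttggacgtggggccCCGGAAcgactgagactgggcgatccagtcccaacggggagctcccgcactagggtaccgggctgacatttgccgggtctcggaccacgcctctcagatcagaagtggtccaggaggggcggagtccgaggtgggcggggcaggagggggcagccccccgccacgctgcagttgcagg
Dusp6, chr10:99262981-99263230, plus strand, GRCm38.p6: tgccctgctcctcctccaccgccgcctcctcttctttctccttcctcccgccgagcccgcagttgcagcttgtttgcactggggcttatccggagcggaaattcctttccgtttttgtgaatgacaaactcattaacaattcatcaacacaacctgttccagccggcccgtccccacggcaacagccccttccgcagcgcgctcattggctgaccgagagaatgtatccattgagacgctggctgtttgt
The table of promoters held 33 entries for 25 of the 33 genes. CCGGAA was found, on either strand, in 2 of these 33 promoters, against 12.0% of all 32851 promoters of the same length. A related core, GGAAGT with reverse complement ACTTCC, was found in 3 (those of Etv5, Fgf13 and Spred2), against 19.7% of all. These are matches of letters within a short window. Which of its starts the Fgf12 probes read was not tested.

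**Figure D1:**
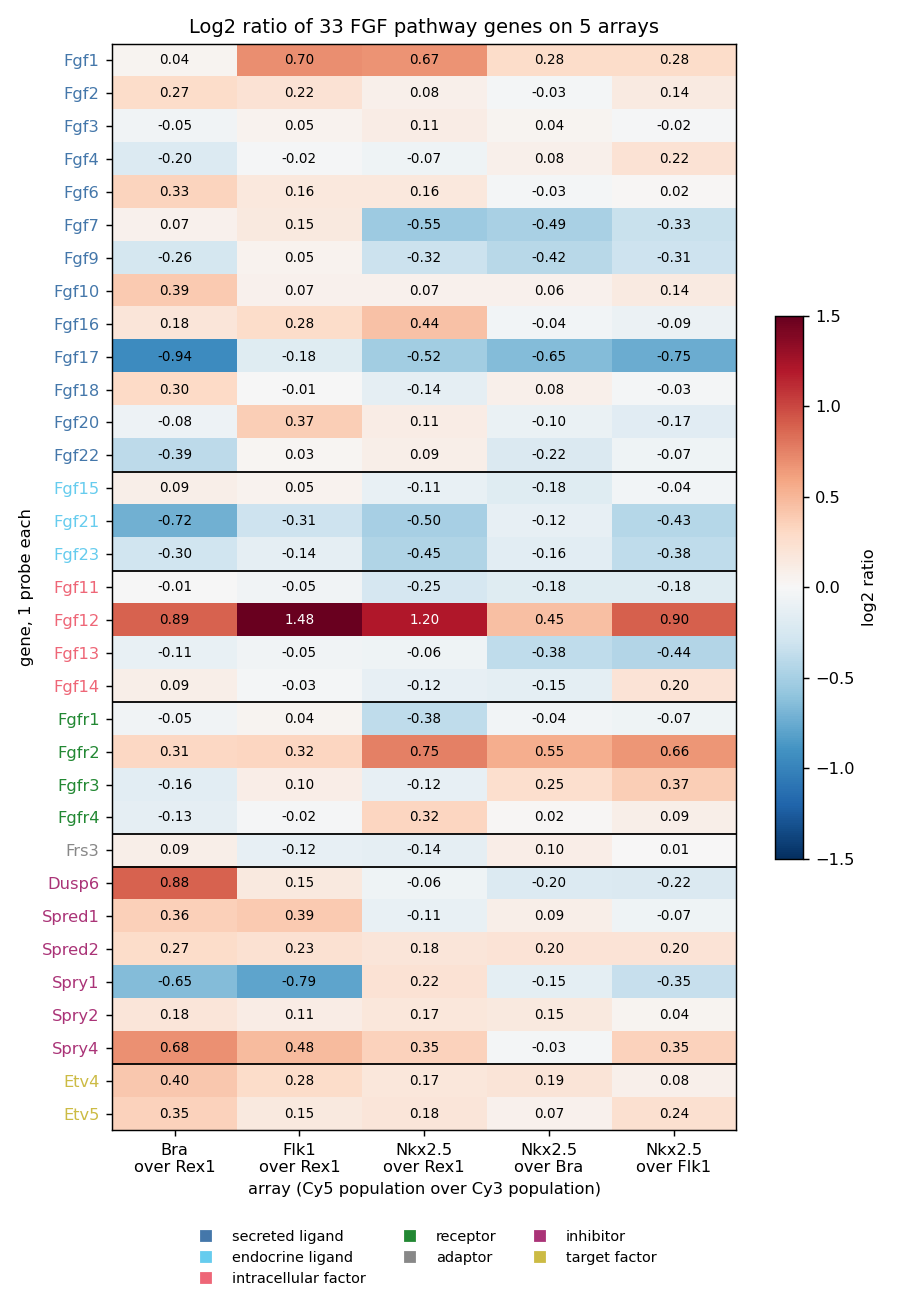
Log2 ratio of the 33 genes (rows, by role) on each of the 5 arrays (columns, Cy5 population over Cy3 population), 1 probe a gene, with the value printed in each cell. Fgf12 has the darkest row, from 0.45 to 1.48, while most cells lie near 0.

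A log2 ratio of 1 is a fold of 2. Because the arrays close into triangles, every comparison has a direct value and an indirect one: the first reading is the array that held both populations, and the second is built from the other arrays of its triangles. Flk1 over Bra was on no array, and both of its readings were built, from the Rex1 arrays and from the Nkx2.5 arrays. A gene passed where both readings had the same sign and reached 1 in size and the brighter population was well above background, meaning over percentile 95 of the negative control spots, on at least 50% of its arrays. A route around a triangle and the direct array differed over all genes with an SD of 0.391 by way of the Bra arrays and 0.439 by way of the Flk1 arrays, or an error of 0.24 for 1 array; over the 33 genes the error was 0.238. A dye effect of a gene adds to this gap and cannot be told apart from error by it. The direct array of Nkx2.5 over Rex1 carries such an effect once and its second reading carries it more than once. These readings thus differ by the effect together with error, and neither is free of it. Their agreement limits the effect only to within that error.

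Of the 33 genes, 1 passed the size rule in Nkx2.5 over Rex1: Fgf12, which was higher. Over all genes 3.13% passed in either direction and 2.42% were higher. No gene of the group passed in Bra over Rex1 (1.38% of all genes did), in Flk1 over Rex1 (0.952%), in Nkx2.5 over Bra (0.335%), in Nkx2.5 over Flk1 (0.383%) or in Flk1 over Bra (0.0242%). The single pass among 33 genes is a share near that of all genes, and at backgrounds this low a count of 0 among 33 is no result about the group.

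First readings of Nkx2.5 over Rex1 had a median of 0.07 and an SD of 0.375 over the 33 genes, against 0.01 and 0.467 over all genes, and second readings a median of 0.06 and an SD of 0.571, against 0.01 and 0.539. In the other comparisons the SD of the first readings ran from 0.249 (Nkx2.5 over Bra, all genes 0.232) to 0.405 (Bra over Rex1, all genes 0.417). Second readings of the group had smaller SDs than those of all genes in these comparisons: 0.264 against 0.401 in Bra over Rex1, 0.243 against 0.395 in Flk1 over Rex1, 0.381 against 0.396 in Nkx2.5 over Bra, 0.297 against 0.392 in Nkx2.5 over Flk1 and 0.17 against 0.232 in Flk1 over Bra. The differences in SD were not tested. Both readings shared a sign in 69.7% of the group and 74.0% of all genes in that comparison. In Bra over Rex1 the shares were 57.6% and 63.5%, and in Flk1 over Bra 51.5% and 53.2%.

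At a smaller size of 0.5, a fold of 1.41, 4 of the 33 genes passed in Nkx2.5 over Rex1 against 11.2% of all genes: Fgf12, Fgf1 and Fgfr2 higher (7.06% of all genes) and Fgf17 lower (4.1%). Fgf12 alone passed at that size in Bra over Rex1, where 6.16% of all genes did. None did in Flk1 over Rex1 (5.29% of all genes), Nkx2.5 over Bra (1.73%), Nkx2.5 over Flk1 (2.53%) or Flk1 over Bra (0.681%).

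**Figure D2:**
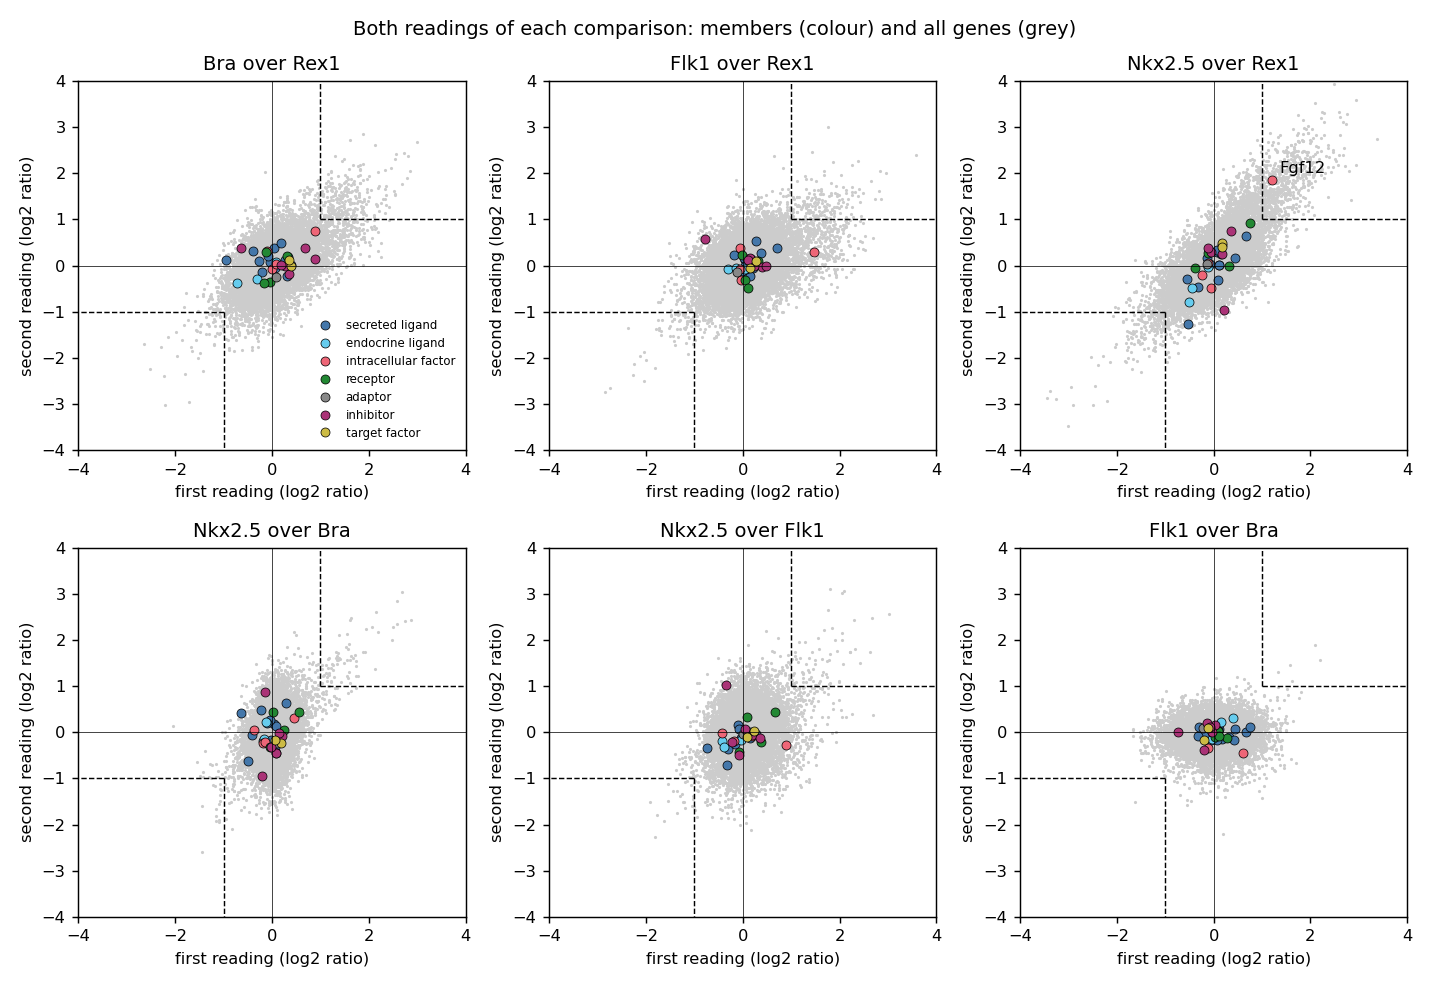
First reading against second reading (log2 ratio) in the 6 comparisons, with the 33 genes coloured by role over all 24799 genes in grey; dashed lines bound the region where both readings reach 1 in size. Fgf12 in Nkx2.5 over Rex1 is the one coloured point inside such a region.

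A linear fit over the 5 arrays in limma, with moderated p-values adjusted over all genes, gives an error for each difference. Those p-values measure the spread between 5 arrays with 2 residual degrees of freedom and not between separate cultures. In Nkx2.5 over Rex1, 5 of the 33 genes had an adjusted p under 0.05 (Fgf12, Fgfr2 and Fgf1 higher, Fgf21 and Fgf23 lower), where 15.4% of all genes did, a share close to the group's own. In Bra over Rex1 none did, against 0.601% of all genes. In the other 4 comparisons 0.0% of all genes, and so no gene of the group, reached that adjusted p. At an unadjusted limma p under 0.05 the 33 genes gave 8 in Bra over Rex1 (21.4% of all genes), 3 in Flk1 over Rex1 (20.1%), 14 in Nkx2.5 over Rex1 (35.8%), 3 in Nkx2.5 over Bra (9.05%), 6 in Nkx2.5 over Flk1 (13.6%) and 0 in Flk1 over Bra (3.6%). The comparisons with Rex1 share its RNA and those with Nkx2.5 share its RNA, so a gene that stands out in several of them has not been found several times.

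Nearly all of the genes gave signal. In every channel of every array 30 of the 33 were well above background, against 74.0% of all genes. The exceptions were Fgf20, above background in no channel, and Fgf1 and Frs3, above it in 2 of 3 Rex1 channels. No gene was left out for low signal. Of 890 probes for odorant, vomeronasal and taste receptors, which sensory cells express, 526 (59.1%) were above background in every channel too, so a signal above background is not read as expression here. This check was chosen after the data were seen. No probe of the group was saturated, and 1 was marked Bad on the array of Nkx2.5 over Flk1.

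Among the 13 secreted ligands none passed the size rule in any comparison. Their first readings of Nkx2.5 over Rex1 ran from -0.55 to 0.67, with 7 ligands positive and 3 negative in both readings. In the lists of values that follow, the arrays against Rex1 cells come first (Bra, then Flk1, then Nkx2.5 cells), followed by Nkx2.5 cells against Bra cells and Nkx2.5 cells against Flk1 cells.

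Fgf4, the ligand that stem cells make and respond to, had log2 ratios of -0.20, -0.02, -0.07, 0.08 and 0.22. No array set the Rex1 cells apart from the differentiated populations by more than the error of 1 array, and the Fgf4 probe was above background in all channels.

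Fgf1, which binds all FGF receptors, had log2 ratios of 0.04, 0.70, 0.67, 0.28 and 0.28. The arrays that set Flk1 or Nkx2.5 cells against Rex1 cells gave the higher values, and the array of Bra cells against Rex1 cells was at 0.04. The second readings did not set Bra and Flk1 cells apart, at 0.39 in both Bra over Rex1 and Flk1 over Rex1. The fitted difference of Nkx2.5 over Rex1 was 0.66 ± 0.14 (SE, limma adjusted p = 0.0437, a fold of 1.58), and that of Flk1 over Rex1 was 0.54 ± 0.15 (limma adjusted p = 0.165). With a dye term for each gene in the fit, Nkx2.5 over Rex1 was 0.70 ± 0.47. A dimmer Fgf1 probe read the other way, at -0.16, -0.44, -0.55, -0.14 and -0.49, and was above background in 1 of 3 Rex1 channels.

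Fgf17, a ligand of the Fgf8 subfamily, had log2 ratios of -0.94, -0.18, -0.52, -0.65 and -0.75. All arrays gave negative values, but they did not add up: Bra over Rex1 was -0.94 when read directly and 0.12 when read as Nkx2.5 over Rex1 minus Nkx2.5 over Bra. Nkx2.5 over Rex1 was -0.52 on its array and -1.26 by the second reading, with a fitted difference of -0.89 ± 0.22 (SE, limma adjusted p = 0.0613). With a dye term for each gene in the fit this became 0.22 ± 0.47.

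Fgf7, a mesenchymal ligand that signals to epithelium, had log2 ratios of 0.07, 0.15, -0.55, -0.49 and -0.33. The arrays with Nkx2.5 cells were the negative ones. The fitted difference of Nkx2.5 over Rex1 was -0.42 ± 0.11 (SE, limma adjusted p = 0.0639), and with the dye term it was -0.81 ± 0.29.

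Fgf16, a ligand known in heart muscle, had log2 ratios of 0.18, 0.28, 0.44, -0.04 and -0.09. The arrays against Rex1 cells were slightly positive and the others were near 0, and the fitted difference of Nkx2.5 over Rex1 was 0.30 ± 0.10 (SE, limma adjusted p = 0.116). With the dye term it was 0.72 ± 0.25.

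The remaining secreted ligands lay closer to 0. Fgf2, Fgf3, Fgf6 and Fgf10 had no value above 0.39 in size on any array, and Fgf9, Fgf18, Fgf20 and the brighter Fgf22 probe none above 0.42. Fgf10, a ligand of cardiac progenitors in the embryo, had 0.07 in Nkx2.5 over Rex1, 0.06 in Nkx2.5 over Bra and 0.14 in Nkx2.5 over Flk1.

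The 3 endocrine ligands act as hormones through Klotho co-receptors, and none passed. In Nkx2.5 over Rex1 all 3 had negative first and second readings. Fgf21, a metabolic hormone, had log2 ratios of -0.72, -0.31, -0.50, -0.12 and -0.43, and Nkx2.5 over Rex1 was fitted at -0.64 ± 0.11 (SE, limma adjusted p = 0.0296, a fold of 1.56 lower). Fgf23, which regulates phosphate, had -0.30, -0.14, -0.45, -0.16 and -0.38, and the fitted difference was -0.47 ± 0.08 (SE, limma adjusted p = 0.0319, a fold of 1.38 lower). Both were negative on all 5 arrays, and the routes of Fgf23 differed from its direct array by -0.01 and -0.07. With a dye term the differences were -0.21 ± 0.26 for Fgf21 and -0.41 ± 0.25 for Fgf23. Fgf15, the gut hormone that controls bile acid synthesis, stayed between -0.18 and 0.09.

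The 4 intracellular FGF homologous factors are not secreted and bind voltage-gated sodium channels. Fgf12 was the gene of the group that passed. Its log2 ratios were 0.89, 1.48, 1.20, 0.45 and 0.90. All 5 arrays were positive, but each is Cy5 over Cy3, so a dye effect of the probe would enter all of them. Second readings, in which such an effect cancels, were 0.75 in Bra over Rex1 and 0.30 in Flk1 over Rex1. Signals of its probe, normalised between arrays and on the log2 scale, ran from 10.48 to 11.06 over the 3 Rex1 channels and from 11.31 to 12.09 over the 3 Nkx2.5 channels. The 2 Bra channels lay at 11.21 and 11.95 and the 2 Flk1 channels at 10.40 and 11.96. Rex1 was always in Cy3 and Nkx2.5 always in Cy5, so a gap between their ranges cannot be told apart from one between the dyes. The Flk1 channels, which held both dyes, spanned nearly all of both ranges.

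Fgf12 in Nkx2.5 over Rex1 was 1.20 on the direct array, 1.34 through Bra and 2.38 through Flk1, and fitted at 1.53 ± 0.24 (SE, limma adjusted p = 0.0281, a fold of 2.89). The route through Flk1 exceeded the direct array by 1.18 and the route through Bra by 0.14. Over the group 3 genes (9.09%) had a gap of 1 or more, against 5.61% of all genes. Fgf12 was fitted at 0.98 ± 0.27 in Bra over Rex1 (limma adjusted p = 0.153) and at 1.06 ± 0.27 in Flk1 over Rex1 (limma adjusted p = 0.148).

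The Fgf12 call held on 1 probe and not in each treatment of the data. With a dye term the fitted difference of Nkx2.5 over Rex1 was 0.54 ± 0.68. The dimmer Fgf12 probe, also above background in all channels, had log2 ratios of 0.23, -0.32, 0.28, -0.09 and -0.15, and was fitted at 0.06 ± 0.17. The bright probe stands for transcript AK011712 and the dimmer for AF020738. With the mean of both the smaller reading was 0.74, with the deposited series table it was 0.96, and without background subtraction it was 0.07, each short of 1.

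The other 3 homologous factors lay near 0. Fgf11 ran from -0.25 to -0.01 over the arrays, Fgf13 from -0.44 to -0.05 and the brightest Fgf14 probe from -0.15 to 0.20. That Fgf14 spot was dim on the array of Nkx2.5 over Flk1. Its signals fell there to 10.49 in Flk1 and 10.70 in Nkx2.5 cells, against 12.22 to 12.37 over the Rex1 channels.

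**Figure D3:**
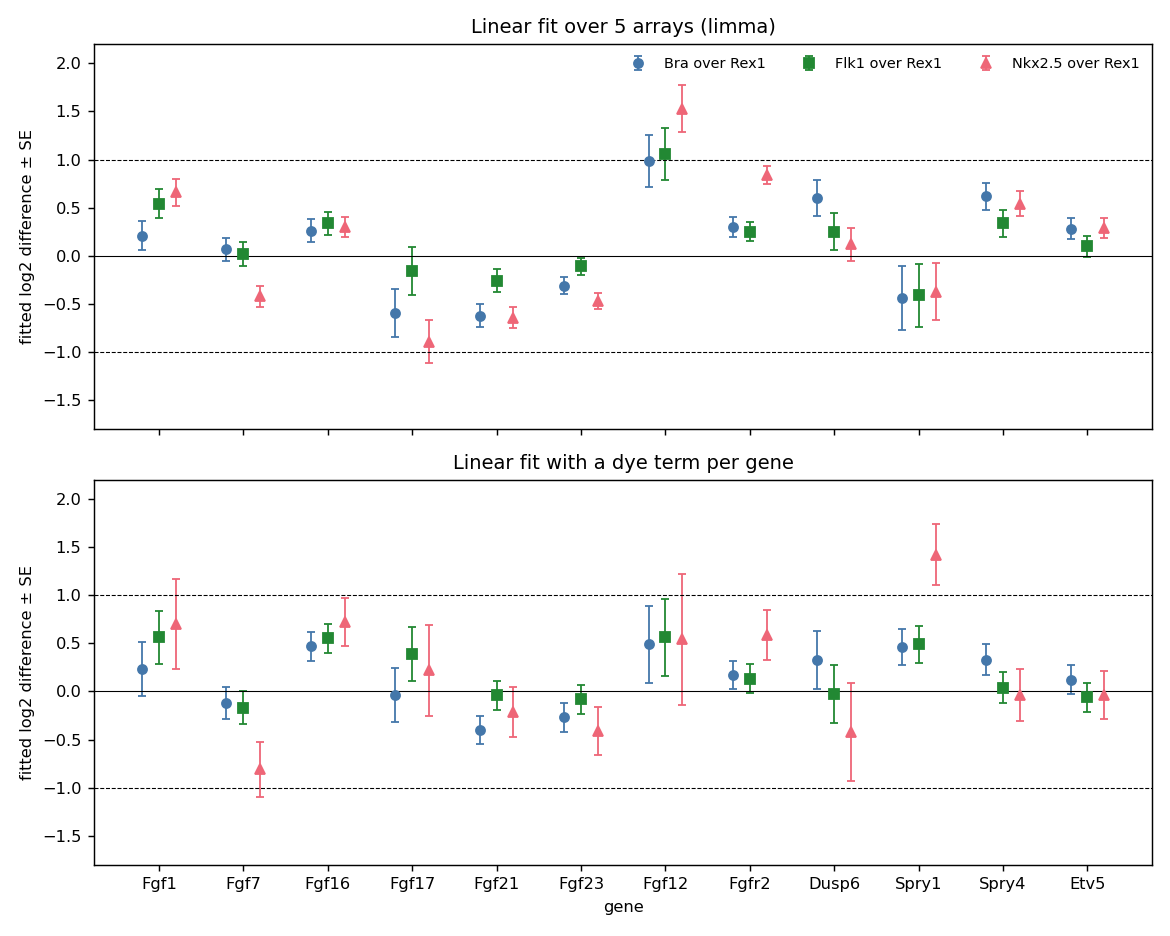
Fitted log2 difference ± SE of 12 genes in Bra, Flk1 and Nkx2.5 cells over Rex1 cells, from the limma fit over 5 arrays (top) and from the same fit with a dye term for each gene (bottom); dashed lines mark 1 and -1. Fgf12 in Nkx2.5 over Rex1 moves from 1.53 to 0.54 and Spry1 from -0.37 to 1.42 between the panels.

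None of the 4 receptors passed the size rule. Fgfr2 came nearest. It had log2 ratios of 0.31, 0.32, 0.75, 0.55 and 0.66, all positive, with the 3 arrays of Nkx2.5 cells the highest. Its routes to Nkx2.5 over Rex1 differed from the direct array by 0.10 and 0.23, and the fitted difference was 0.84 ± 0.09 (SE, limma adjusted p = 0.0158, a fold of 1.79). With the dye term it was 0.59 ± 0.26. Nkx2.5 over Bra was fitted at 0.54 ± 0.10 (limma adjusted p = 0.327) and Nkx2.5 over Flk1 at 0.59 ± 0.10 (limma adjusted p = 0.203).

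The dimmer Fgfr2 probe did not show this pattern. It had log2 ratios of 0.57, -0.04, -0.27, 0.07 and 0.17, with a fitted difference of 0.06 ± 0.19 in Nkx2.5 over Rex1, and was above background in 2 of 3 Rex1 channels. Fgfr2 is spliced into receptor forms that differ in the ligands they bind, and which form each probe reads was not tested.

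Fgfr1, the main receptor of early embryonic cells, was read by 4 probes. The brightest had log2 ratios of -0.05, 0.04, -0.38, -0.04 and -0.07, and over the 4 probes Nkx2.5 over Rex1 ran from -0.38 to 0.32. Fgfr3 ran from -0.16 to 0.37 over the arrays and Fgfr4 from -0.13 to 0.32. The signs of both Fgfr1 readings were alike and negative in Nkx2.5 over Rex1, at -0.38 and -0.05, and those of Fgfr3 and Fgfr4 were unlike. The fitted differences there were -0.22 ± 0.11 for Fgfr1, 0.08 ± 0.14 for Fgfr3 and 0.15 ± 0.12 for Fgfr4. With the dye term they were larger in size, at -0.71 ± 0.25, -0.52 ± 0.34 and 0.66 ± 0.27. The other Fgfr1 probes ran from -0.55 to 0.28 in that fit. Frs3, an adaptor that links receptors to Ras, ran from -0.14 to 0.10.

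The feedback genes, read as a group of 8 (the 6 inhibitors with Etv4 and Etv5), held no passing gene in any of the 6 comparisons. In Bra over Rex1, 7 of the 8 were positive in the first reading, with a median of 0.35, and 5 in the second, with a median of 0.06. The first median stood above that of all genes, 0.00, and the second was close to their 0.01. A dye effect of a gene enters the first of these readings and cancels in the second. In Nkx2.5 over Rex1, 6 of the 8 were positive in the first reading, with a median of 0.18, and 7 in the second, with a median of 0.39, and 5 were positive and 0 negative in both. Over all 24799 genes 9396 were positive and 8956 negative in both. Such a dye effect cancels in neither reading of that comparison. With a dye term in the fit, Nkx2.5 over Rex1 was -0.60 for Spred1, 1.42 for Spry1 and between -0.42 (Dusp6) and 0.09 (Spry2) for the others.

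Dusp6, the phosphatase that inactivates ERK, had log2 ratios of 0.88, 0.15, -0.06, -0.20 and -0.22. The array of Bra cells against Rex1 cells stood alone: the second reading of that comparison was 0.14, and the fitted difference was 0.60 ± 0.19 (SE, limma adjusted p = 0.18). Nkx2.5 over Bra was -0.20 directly and -0.94 by its second reading.

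Spry4, a Sprouty inhibitor of receptor signalling, had log2 ratios of 0.68, 0.48, 0.35, -0.03 and 0.35. The arrays against Rex1 cells were positive. The fitted differences from Rex1 were 0.62 ± 0.14 in Bra cells (SE, limma adjusted p = 0.115), 0.34 ± 0.14 in Flk1 cells (limma adjusted p = 0.28) and 0.54 ± 0.13 in Nkx2.5 cells (limma adjusted p = 0.0536). With the dye term these were 0.33 ± 0.16, 0.04 ± 0.16 and -0.04 ± 0.27.

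Spry1, another Sprouty inhibitor, had log2 ratios of -0.65, -0.79, 0.22, -0.15 and -0.35, and its routes disagreed most. Nkx2.5 over Rex1 was 0.22 on its array, -0.80 through Bra and -1.14 through Flk1, and fitted at -0.37 ± 0.30 (SE, limma adjusted p = 0.419). With the dye term the fit became 1.42 ± 0.32 (limma adjusted p = 0.339). Second readings, in which a dye effect cancels, were 0.37 in Bra over Rex1 and 0.58 in Flk1 over Rex1. They were 0.88 in Nkx2.5 over Bra and 1.02 in Nkx2.5 over Flk1. Each was built on the array of Nkx2.5 over Rex1, so they are not separate findings. The sign of the difference in Nkx2.5 over Rex1 turned with the model, and no direction is given for Spry1.

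Spry2 ran from 0.04 to 0.18 over the arrays, Spred2 from 0.18 to 0.27 and Spred1 from -0.11 to 0.39. These inhibitors act on the Ras cascade below the receptors. Spred2 was positive on all 5 arrays, while its second reading was -0.02 in Bra over Rex1 and -0.05 in Nkx2.5 over Flk1. The Spry2 spot was dim on the array of Nkx2.5 over Bra. Its signals fell there to 10.32 in Bra and 10.47 in Nkx2.5 cells, against 12.68 to 13.02 over the Rex1 channels. Readings of Spry2 built from that array share this limit.

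The target factors were small and alike. Etv4 had log2 ratios of 0.40, 0.28, 0.17, 0.19 and 0.08, and Etv5 had 0.35, 0.15, 0.18, 0.07 and 0.24. All 10 values were positive. The fitted differences of Nkx2.5 over Rex1 were 0.33 ± 0.11 for Etv4 (SE, limma adjusted p = 0.12) and 0.29 ± 0.10 for Etv5 (limma adjusted p = 0.107), and with the dye term they were -0.13 ± 0.28 and -0.04 ± 0.25.

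**Figure D4:**
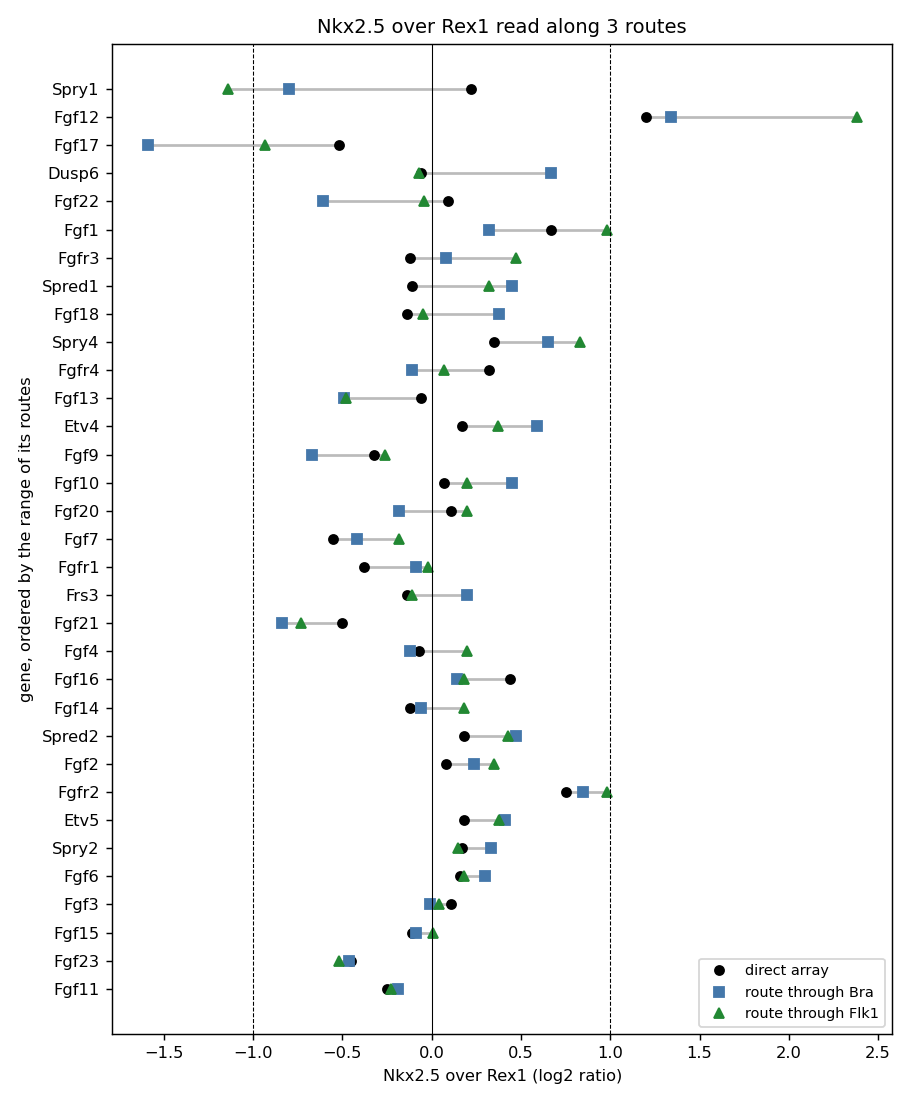
Nkx2.5 over Rex1 (log2 ratio) of each of the 33 genes along 3 routes: the direct array, the sum of the arrays through Bra and the sum through Flk1, with genes ordered by the range of the 3. Spry1, Fgf12 and Fgf17 have the widest ranges, and Fgf12 alone lies beyond 1 on all 3 routes.

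Genes with several probes showed how far probes of 1 gene can differ. Fgf22 had -0.39, 0.03, 0.09, -0.22 and -0.07 for the brighter probe and 0.81, 0.61, 0.88, 0.12 and 0.18 for the other, both above background in all channels. The other probe had routes that differed from the direct array by 0.05 and -0.08 and was fitted at 0.87 ± 0.08 in Nkx2.5 over Rex1, and it would have passed at a size of 0.5 in all 3 comparisons with Rex1. This probe was singled out after its values were seen. On the array of Nkx2.5 over Rex1 the probes of a gene differed by 1.23 for Fgf1, 1.02 for Fgfr2, 0.93 for Fgf12, 0.79 for Fgf22, 0.70 for Fgfr1, 0.67 for Fgf14 and 0.17 for Fgfr3, against an error of 0.24 for 1 array.

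**Figure D5:**
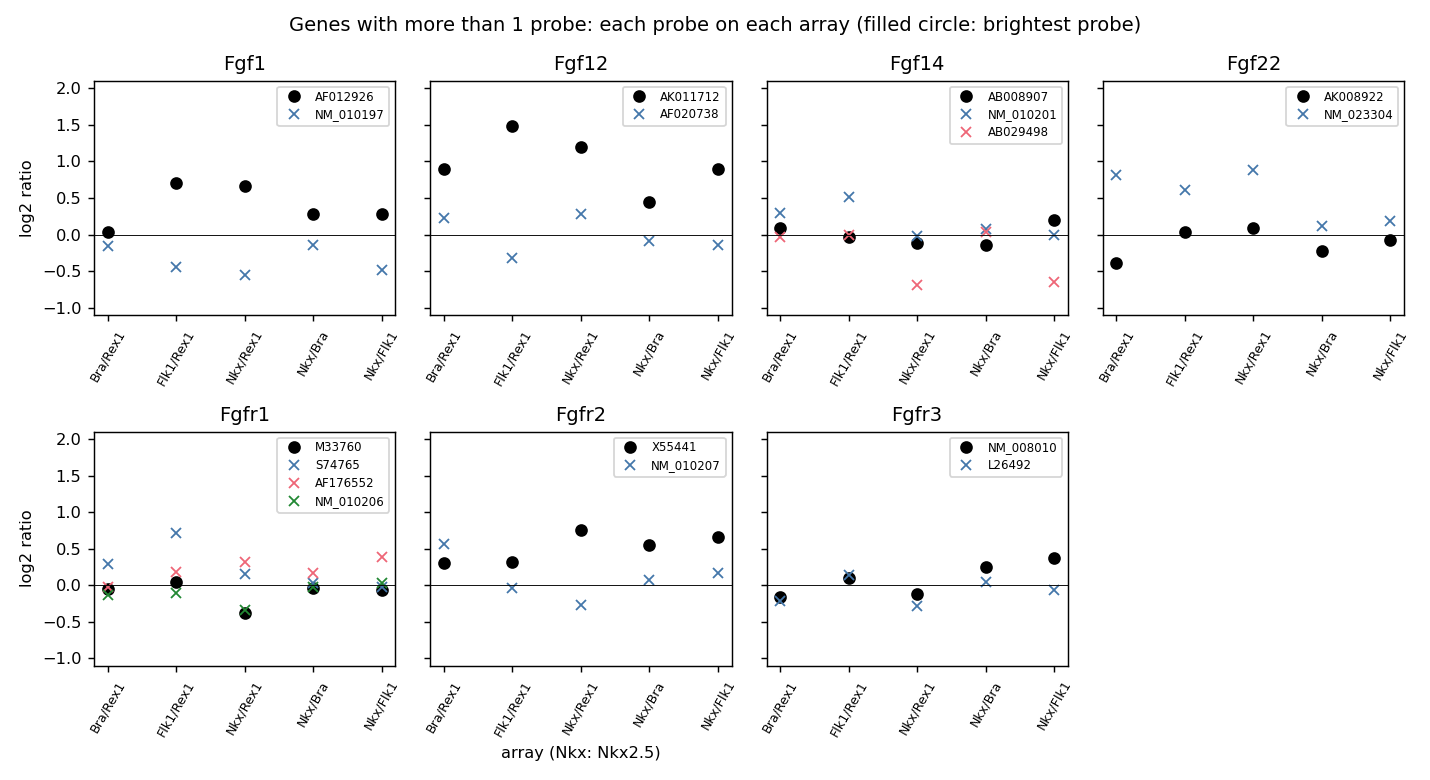
Log2 ratio of every probe of the 7 genes with more than 1 probe on each array, with the brightest probe as a filled circle and the others as crosses, labelled by the transcript accession of the probe. The probes of Fgf12 and Fgf1 lie apart on the array of Flk1 over Rex1, by 1.80 and 1.14, while those of Fgfr3 lie within 0.43 of each other on each array.

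For scale, Fgf8, which was left out by its name, had log2 ratios of 2.36, 1.84, 0.55, -1.16 and -0.64 on its brighter probe, which was above background in 1 of 3 Rex1 channels, and 0.66, -0.01, -0.39, -1.03 and -1.26 on the other, above it in all 3. The 3 probes of Fgf5 disagreed: the brightest had 0.25, 0.07, -0.23, -0.65 and -0.53, another 1.36, 0.82, 0.30, -0.01 and 0.49, and the last, above background in 0 of 3 Rex1 channels, 1.20, 1.78, 0.26, -1.48 and -1.27.

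Of a list of 42 other genes of the pathway (co-receptors, the Ras and MAP kinase cascade and further targets and inhibitors), 32 were measured, and 0 passed in either direction in each of the 6 comparisons, where between 0.0242% and 3.13% of all genes did. Etv1, an ETS factor of the same family as Etv4 and Etv5, had 1.56 and 0.92 in Bra over Rex1 and 0.96 and 1.58 in Nkx2.5 over Rex1. Il17rd, the FGF inhibitor Sef, had 0.86 and 0.95 in Bra over Rex1 and 0.81 and 0.90 in Flk1 over Rex1, on the brighter of its 2 probes. The Etv1 probe was above background in 1 of 3 Rex1 channels and the Nras probe in 0 of 3. Dusp14, a MAP kinase phosphatase, had -1.41 and -0.76 in Nkx2.5 over Rex1, and Nras, a Ras protein, had 0.88 and 1.03. At a size of 0.5 the list held 4 higher and 2 lower genes in Nkx2.5 over Rex1, against 7.06% and 4.1% of all genes. Its median readings there were 0.16 and 0.17, against 0.01 and 0.01 over all genes.

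The populations were set against markers of their own and of other cell types. Zfp42 passed as lower in all 3 comparisons with Rex1 cells, at -1.74 and -1.19 in Bra over Rex1. T was 1.07 and 0.73 in Bra over Rex1, Kdr was 0.83 and 0.63 in Flk1 over Bra, and Nkx2-5 was 1.40 and 0.63 in Nkx2.5 over Flk1, each with the sign of its label and short of the size rule. T was also positive in Flk1 over Rex1, at 0.81 and 0.46, and read -0.26 and -0.27 in Flk1 over Bra. Nkx2-5 was 0.53 and 0.91 in Nkx2.5 over Rex1. In Nkx2.5 over Rex1, beside the Fgf12 value, 5 of 12 cardiac genes (Myl4, Myl7, Tnnc1, Tnni1 and Tnnt2), 3 of 12 blood genes (the globins Hba-a1, Hbb-bh1 and Hbb-y) and 4 of 13 endoderm genes (Afp, Cubn, Sox17 and Ttr) were higher. None of 12 endothelial or 10 fibroblast genes passed there, and 5 of 15 pluripotency genes were lower. Over all genes 2.42% were higher and 0.702% lower. At a size of 0.5, 4 of the 12 endothelial genes were higher and 1 was lower, against 7.06% and 4.1% of all genes. The endothelial median readings were 0.38 and 0.34, against 0.01 and 0.01 over all genes. The Nkx2.5 cells thus differed from the Rex1 cells in markers of several cell types, and the part of these in the Fgf12 and Fgfr2 values was not tested.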

How the data were processed

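RNA of 4 cell populations was compared on 5 two-colour arrays. Per the labels' protocols, RNA was amplified in amino allyl form before the dyes were coupled. The deposited intensity columns used here are, per the file headers, each channel's median signal and its background, and tests on the files showed that the median is net of its block's background. The deposited ratio is the quotient of the scaled channel signals, and the authors' series table holds log2 ratios less 1 constant per array. The scanner software is not given in the sources used here.

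Signals were rebuilt as median plus background, corrected with normexp (offset 50) and normalised within arrays by loess in limma 3.58.1 (R 4.3.3), with control spots at weight 0. Tables were made in Python 3.11.15. The 28845 probes were named through a RefSeq table of GRCm38.p6, where an accession gave the name of 8056, a symbol that of 5226 and a synonym that of 5081. The file's name was kept for 558, and 9924 have none. The FGF genes were grouped by the name in the files. The brightest probe stood for a gene. The scripts were tested on simulated data.

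The main comparisons are readings without a test, since each pair was hybridised once, and the number of arrays limits their precision. Ratios of spots marked Bad were kept. Genes given in full passed in any comparison, or were among the 4 with the largest smaller reading in a comparison, or the 3 whose routes disagreed most; Fgf4, Etv4, the genes of several probes and the left-out Fgf8 and Fgf5 were added outside this rule. The genes and lists were chosen with earlier results of these data known. Alternatives varied the background, the offset, the normalisation, the starting values, the probe, the size, the detection rule and the fit. The result of a further marker list is not reported here.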

Additional observations from a re-analysis of the deposited data

How the results depend on the processing

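Over 10 alternative settings and 6 comparisons, the count of FGF genes past the size rule was the same as given above in 54 of 60 cases. In Nkx2.5 over Rex1, where the count was 1 (3.13% of all genes), it was 0 without background subtraction (5 of all 24799 genes passed then). It was 0 with the deposited series table (1.76% of all genes), 0 with the mean over the probes of a gene (3.06%) and 4 at a size of 0.5 (11.2%). In Bra over Rex1 it was 1 at a size of 0.5 (6.16% of all genes). In Flk1 over Rex1 it was 1 with the linear fit (2.48%). The gene was Fgf12 in both. With a dye term the count in Nkx2.5 over Rex1 was also 1, but the gene was Spry1 in place of Fgf12. The share of all genes rose to 9.53% there. For the 12 genes given in full, the smaller reading of each comparison was set against 504 values under the alternatives. Under the linear fits that value was the fitted difference, which is a different measure. Of the 504, 415 moved by less than the error of 1 array and 89 by more. Of these 89, 28 were under the dye term, 26 without background subtraction and 21 under the linear fit. The cause was not tested. Net signal over background was lowest in the Rex1 channels, at 0.302 to 0.34, and between 0.597 and 1.5 in the others. This low signal is a limit on the Rex1 values. Rex1 was always in Cy3, so its low signal cannot be told apart from that of the channel. Cy3 was also below Cy5 in Nkx2.5 over Bra (0.975 against 1.5) and in Nkx2.5 over Flk1 (0.597 against 1.35). No paired analysis was possible because each pair of populations was hybridised once and no replicate numbers are shared.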

Other observations

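Heparan sulfate proteoglycans present FGFs to their receptors, and 19 of a list of 20 genes for their core proteins and sulfation were measured. In Nkx2.5 over Rex1, 2 of the 19 were higher, against 2.42% of all genes, and none was lower. Gpc3, a glypican core protein, read 1.99 and 2.26 there, 1.74 and 1.54 in Nkx2.5 over Flk1, where it also passed, and 1.31 and 0.96 in Nkx2.5 over Bra. Ndst1, which sulfates the chains, read 1.17 and 1.97 in Nkx2.5 over Rex1, and in Nkx2.5 over Flk1 its readings were 0.56 and -0.49. Ndst1 had 2 probes, and these values are of the brighter one alone. The median readings of the list in Nkx2.5 over Rex1 were 0.05 and -0.09, against 0.01 and 0.01 over all genes.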
